A study of Mus musculus with 16 samples.

Results

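The TOX family is a group of DNA-binding proteins that share 1 HMG box, and in the mouse its 4 members are encoded by Tox, Tox2, Tox3 and Tox4. The members were chosen by gene name, and all 4 are among the 24984 genes of the count table for CD4+CD8+ double-positive (DP) thymocytes and the 24974 genes of the table for CD8 thymocytes. The RNA-seq libraries were made from mice on the C57BL/6 background in which loxP sites flank exons 4 to 6 of Tox4. Control mice (Tox4 F/F) carried the floxed alleles without a Cre transgene. The cKO mice carried the same alleles with Lck-Cre, in which the proximal Lck promoter drives Cre in thymocytes from the DN3 stage onward, before the DP stage. All mice were sex-matched littermates aged 6 to 8 weeks. DP thymocytes were sorted from 3 control and 3 cKO mice, and TCRβ+CD8+ thymocytes, called CD8 here, from 5 control and 5 cKO mice.

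TOX proteins bind DNA through the HMG box, which recognizes and bends DNA more by its shape than by a fixed sequence. TOX is induced by calcineurin signaling downstream of the T cell receptor (TCR), is required for CD4 lineage development in the thymus, and marks exhausted CD8 T cells in chronic infection and tumors, where TOX2 acts with it. TOX2 is also known from follicular helper T cells, TOX3 from neurons and breast epithelium, and TOX4 as a subunit of the PTW/PP1 phosphatase complex, which it forms with PNUTS (encoded by Ppp1r10), WDR82 and a catalytic subunit of protein phosphatase 1.

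Reads assigned to genes in the DP control libraries, in the order of their replicate numbers, came to 16524506, 18484568 and 17221704, and in the DP cKO libraries to 21154634, 14583336 and 25981683. The CD8 control libraries held 9420085, 10882293, 9899833, 10949265 and 13530783 assigned reads, and the CD8 cKO libraries 11687062, 11828492, 8905915, 8894000 and 8514135. Every DP library was thus deeper than every CD8 library. Tox had 1874 to 6107 counts in a library, Tox4 1427 to 3342, Tox2 52 to 637 and Tox3 11 to 358, so that counting error was largest for Tox3 in CD8 cells.

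The CD8 libraries numbered 1 and 2, control and cKO alike, stood apart from those numbered 3 to 5, in genes picked after their values were seen. Cd4 was at 62.1, 70.9, 6.31, 3.64 and 10.7 TPM (a level scaled for transcript length and library size) in the 5 CD8 controls and at 69.7, 81.6, 6.78, 5.79 and 8.33 in the 5 CD8 cKO samples. Rag1, a recombinase gene of DP cells, was at 43.4, 60.1, 10.8, 5.57 and 7.36 TPM in controls and at 37.2, 48.1, 12.1, 15.8 and 12.4 in cKO samples. Klf2, a transcription factor gene of mature thymocytes, was at 585, 477, 1425, 1599 and 1242 TPM in controls and at 429.5, 476, 1395, 1494.8 and 898 in cKO samples. In each genotype the samples numbered 1 and 2 were thus high in Cd4 and Rag1 and low in Klf2, with no overlap with the other 3. The labels give no reason for this, and for the members, the family and the gene lists results in CD8 cells are given with these 4 libraries and without them. CD8 control replicate 1 also had counts in 17741 genes, against 13708 to 15054 in the other CD8 samples. The library labelled cKO replicate 4 went against its label in Tox4, as described with the Tox4 values.

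The feature that defines the family is the HMG box. A conserved block, picked by identity and not by a domain annotation, is shown for the 4 members as coding sequence. Its bounds need not be those of the HMG box. Most of the block lies in an exon that the cKO removes from Tox4. By the gene bounds deposited with the DP counts, which are on GRCm38, the assembly also called mm10, Tox lies at chr4:6687386-6990723 on the minus strand, Tox2 at chr2:163204186-163324169 on the plus strand, Tox3 at chr8:90247112-90348252 on the minus strand and Tox4 at chr14:52279146-52295509 on the plus strand. In the GENCODE annotation of GRCm38 their principal transcripts encode proteins of 526, 522, 575 and 619 codons. An alignment of the 4 has 1 long conserved block of 92 codons without a gap, taken as the longest gapless stretch with at least 60% identical columns. By the standard genetic code, 77 of the 92 codons (83.7%) encode the same amino acid in all 4 genes, and 172 of the 276 bases (62.3%) are the same. Capitals mark the bases shared by all 4, and each sequence is printed 5′ to 3′ on the coding strand.
Tox: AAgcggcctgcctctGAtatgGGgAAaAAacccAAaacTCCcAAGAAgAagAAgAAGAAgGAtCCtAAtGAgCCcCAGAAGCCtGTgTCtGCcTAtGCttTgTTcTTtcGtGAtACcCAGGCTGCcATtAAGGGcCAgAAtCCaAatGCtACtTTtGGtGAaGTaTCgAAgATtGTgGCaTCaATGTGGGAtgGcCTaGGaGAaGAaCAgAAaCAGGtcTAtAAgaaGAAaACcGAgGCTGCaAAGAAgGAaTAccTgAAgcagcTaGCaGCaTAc
Tox2: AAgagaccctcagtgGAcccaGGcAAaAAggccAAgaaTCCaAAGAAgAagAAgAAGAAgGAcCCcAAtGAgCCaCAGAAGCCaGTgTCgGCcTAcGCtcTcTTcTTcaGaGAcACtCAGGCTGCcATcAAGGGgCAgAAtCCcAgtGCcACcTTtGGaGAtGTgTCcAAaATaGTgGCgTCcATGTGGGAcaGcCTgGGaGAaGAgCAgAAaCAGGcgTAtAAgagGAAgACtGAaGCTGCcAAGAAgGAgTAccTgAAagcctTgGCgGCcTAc
Tox3: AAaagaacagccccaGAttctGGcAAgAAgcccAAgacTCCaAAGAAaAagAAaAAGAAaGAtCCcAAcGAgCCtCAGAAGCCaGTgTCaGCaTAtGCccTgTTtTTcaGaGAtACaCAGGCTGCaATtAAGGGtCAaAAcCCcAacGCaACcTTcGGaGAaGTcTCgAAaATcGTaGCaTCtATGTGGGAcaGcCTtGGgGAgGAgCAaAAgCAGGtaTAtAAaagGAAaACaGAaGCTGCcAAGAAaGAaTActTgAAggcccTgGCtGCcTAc
Tox4: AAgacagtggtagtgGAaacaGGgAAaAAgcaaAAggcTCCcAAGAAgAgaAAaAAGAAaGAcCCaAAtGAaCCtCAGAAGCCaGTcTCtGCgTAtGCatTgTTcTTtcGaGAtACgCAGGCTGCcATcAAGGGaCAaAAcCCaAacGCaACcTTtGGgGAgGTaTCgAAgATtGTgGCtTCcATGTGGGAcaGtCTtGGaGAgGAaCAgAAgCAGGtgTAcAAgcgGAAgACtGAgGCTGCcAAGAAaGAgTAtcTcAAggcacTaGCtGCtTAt

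In every gene the block is split over 2 exons, with 216 bases in the first and 60 in the second. They lie at chr4:6722138-6722353 and chr4:6711479-6711538 for Tox, at chr2:163315807-163316022 and chr2:163319562-163319621 for Tox2, at chr8:90254275-90254490 and chr8:90252673-90252732 for Tox3, and at chr14:52287316-52287531 and chr14:52290761-52290820 for Tox4. Pairs of members shared 75.4% to 78.3% of the bases of the block and 87.0% to 93.5% of its encoded residues, but 23.9% to 40.3% of the residues outside it. The longest run of bases that a pair shared anywhere in its principal transcripts, not only in the block, was 14 to 24. In Tox4 the first exon of the block is exon 6, so 216 of its 276 bases (78.3%) fall in the floxed interval. The floxed exons hold 245 codons and no incomplete codon, so joining exon 3 to exon 7 keeps the reading frame. In the gene model deposited with the counts they make up 3 of the 10 exons and 735 of the 4458 exonic bases (16.5%). If fragments were spread evenly over these bases, loss of the floxed ones alone would lower the Tox4 count by -0.26 on the log2 scale. How evenly fragments were spread was not tested. The deposited model ends exon 10 after 2309 bases, where GENCODE gives it 3201, and the other 9 exons have the same bounds in both. Counts are per gene, so reads of floxed and other exons could not be separated.

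**Figure D1:**
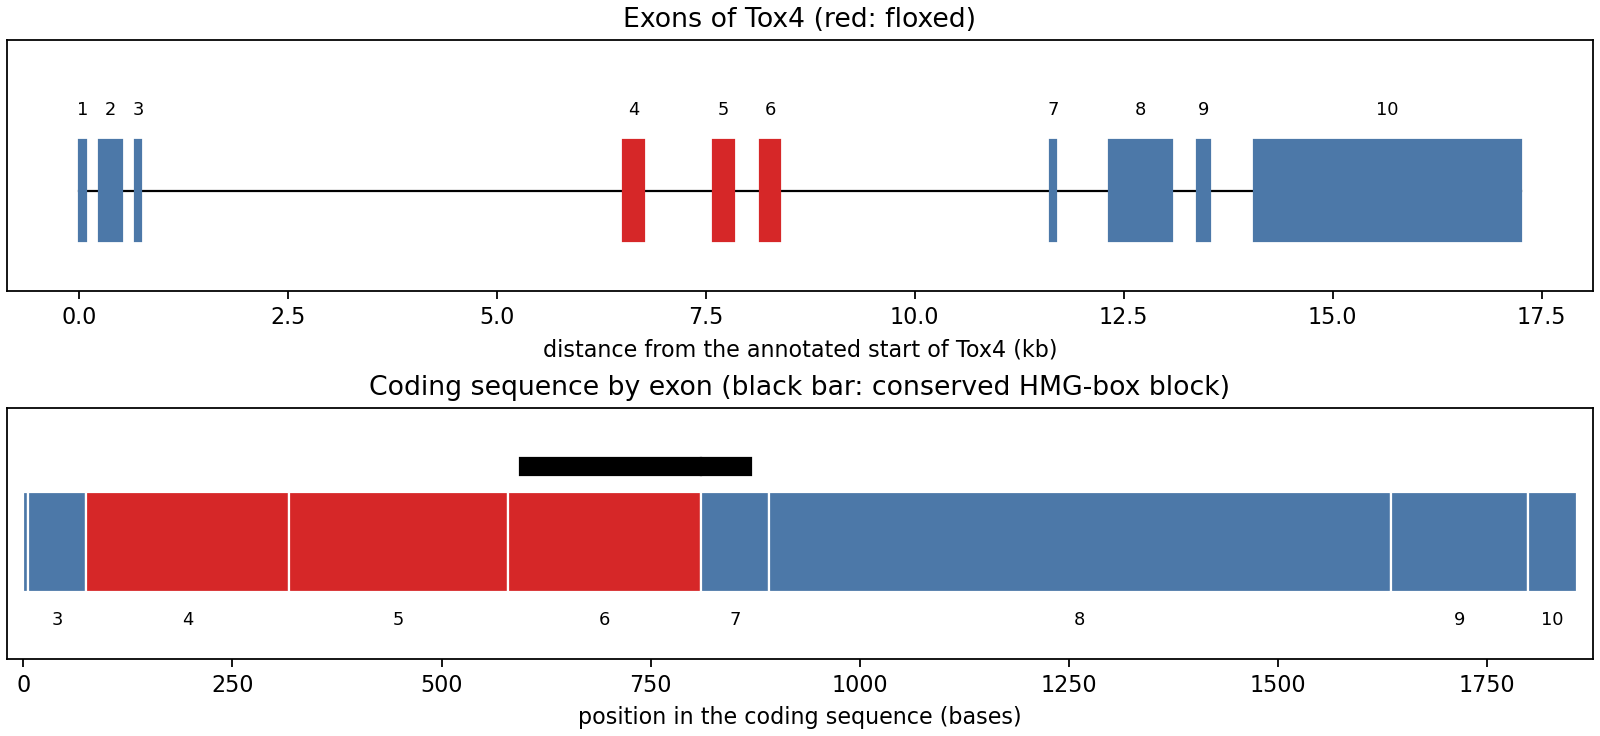
Tox4 exons and the conserved block. The upper panel draws the 10 GENCODE exons by distance from the annotated start in kb with the floxed exons 4 to 6 in red, and the lower panel draws the coding sequence by exon in bases, with a black bar for the 276-base block, of which 216 bases are in exon 6.

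Tox4 was lower in every DP cKO sample than in any DP control, and in CD8 cells it was lower in the cKO sample of 4 of 5 pairs of the same number in CPM and of 3 in TPM. In CPM, the count scaled for library size by TMM normalization and used here to compare genotypes, Tox4 was at 154, 172 and 180.3 in the DP controls and at 133, 141 and 131 in the DP cKO samples. The highest DP cKO sample lay below the lowest DP control, so the groups did not overlap. By replicate number the log2 ratio of cKO to control was -0.21, -0.29 and -0.46. The edgeR log2 fold change was -0.32 (SE 0.11, 95% interval -0.57 to -0.07), an interval that includes the -0.26 that loss of the floxed fragments alone would give. Its adjusted p was 0.381 in edgeR, with a range of 0.121 to 0.767 over the alternatives, and an exact two-sided permutation test gave 0.1, the smallest p that 3 against 3 allows.

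In CD8 cells Tox4 was at 197, 188, 200.1, 201 and 178 CPM in the controls and at 169, 185, 176, 234 and 164 in the cKO samples. The library labelled cKO replicate 4 held more Tox4 than any control, while the other 4 cKO samples were each below the control of the same number in CPM, and the groups overlapped. In TPM replicate 5 too was higher in the cKO sample. The log2 ratios by replicate number were -0.22, -0.02, -0.19, 0.21 and -0.12. The edgeR log2 fold change was -0.06 (SE 0.10, 95% interval -0.27 to 0.15, adjusted p 0.979), an interval that just includes the -0.26 of the floxed fragments alone. With the replicate number as a block it was -0.07 (95% interval -0.25 to 0.12, adjusted p 0.878), an interval that does not reach -0.26, and without the samples numbered 1 and 2 it was -0.02 (95% interval -0.31 to 0.27, adjusted p 0.983). Without the library labelled cKO replicate 4 it was -0.15, and over all alternatives it ran from -0.15 to -0.01 with edgeR or DESeq2 adjusted p from 0.878 to 0.999. An exact permutation test gave p = 0.627. The library labelled cKO replicate 4 held 110.3 TPM of Ppp1r10, 5.89 of Cd163l1 and 7.59 of Sox13, against at most 103, 2.87 and 6.30 in the CD8 controls. These genes were picked after their values were seen, and in each of them every CD8 cKO sample lay above every control. They therefore do not test the label of that library. How many of its cells had kept the exons was not tested.

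The genes on either side of Tox4, Mettl3 and Rab2b, lie on the minus strand and, in the deposited gene models, overlap its exons by 252 and 45 bases. Mettl3 encodes the catalytic subunit of the m6A methyltransferase and Rab2b a small GTPase. Mettl3 had a log2 fold change of 0.03 in DP and -0.18 in CD8 cells, and Rab2b of -0.21 and -0.08, with edgeR adjusted p of 0.748 to 0.982. Neither therefore passed the test in either cell type. The direction of Mettl3 in DP cells turned without DP control 2 (-0.06) or DP cKO 1 (-0.02), and that of Rab2b in CD8 cells without CD8 control 1 (0.0976) or without the samples numbered 1 and 2 (0.13).

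Compared between genes in TPM, which accounts for transcript length, Tox was the most abundant member in every sample and Tox4 the next. Tox was at 193, 167 and 162 TPM in DP controls, at 151, 126 and 131 in DP cKO samples, at 649, 593, 323, 286 and 344 in CD8 controls and at 588, 549.6, 306, 352 and 378 in CD8 cKO samples. It was higher in each CD8 sample than in any DP sample, and within CD8 cells the samples numbered 1 and 2 were the highest. Tox4 was at 104, 107 and 113 TPM in DP controls, at 86.5, 89.0 and 77.8 in DP cKO samples, at 139, 141, 148, 142 and 129 in CD8 controls and at 122, 137, 131, 162 and 133 in CD8 cKO samples. Its range over the CD8 samples was narrow, and samples 1 and 2 did not stand out. Tox2 was at 7.09, 11.5 and 10.2 TPM in DP controls, at 11.3, 8.92 and 15.7 in DP cKO samples, at 26.3, 33.9, 5.65, 4.57 and 6.82 in CD8 controls and at 53.4, 35.9, 8.33, 12.4 and 13.05 in CD8 cKO samples. The CD8 samples numbered 1 and 2 held 26.3 TPM or more, and the other CD8 samples no more than 13.05. Tox3 was at 9.27, 7.002 and 11.2 TPM in DP controls, at 8.14, 10.3 and 11.6 in DP cKO samples, at 3.22, 1.35, 1.24, 2.80 and 0.956 in CD8 controls and at 3.44, 2.37, 2.93, 1.57 and 1.43 in CD8 cKO samples. Every DP sample was above every CD8 sample in Tox3.

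**Figure D2:**
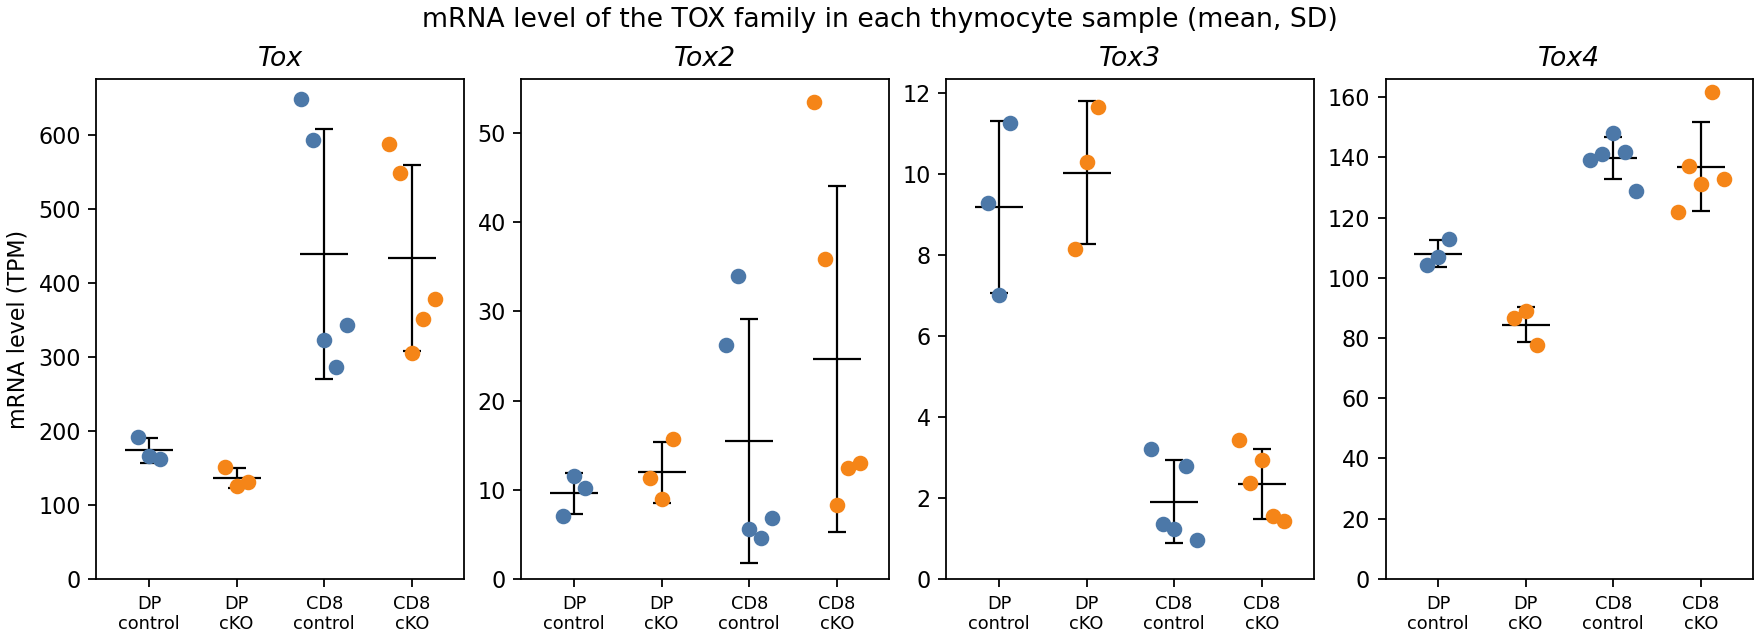
Level of each member in TPM in the 16 samples, 1 panel for each gene, with points for samples and with the mean and SD of each of the 4 groups. Tox lies between 126 and 649, Tox4 between 77.8 and 162, Tox2 between 4.57 and 53.4 and Tox3 between 0.956 and 11.6.

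In DP controls the order of mean levels was Tox at 174 TPM (SD 16.5, n = 3), Tox4 at 108 (SD 4.44), Tox2 at 9.61 (SD 2.28) and Tox3 at 9.17 (SD 2.12). In DP cKO samples the means were 136 for Tox (SD 13.1, n = 3), 84.5 for Tox4 (SD 5.91), 11.97 for Tox2 (SD 3.41) and 10.02 for Tox3 (SD 1.76). In both DP groups Tox2 and Tox3 did not differ beyond their spread, and the other neighbors in the order did not overlap. In CD8 controls the means were 439 for Tox (SD 169, n = 5), 139.7 for Tox4 (SD 7.0005), 15.4 for Tox2 (SD 13.7) and 1.91 for Tox3 (SD 1.02). In CD8 cKO samples the means were 435 for Tox (SD 126, n = 5), 137 for Tox4 (SD 14.9), 24.6 for Tox2 (SD 19.4) and 2.35 for Tox3 (SD 0.863). No neighbors in the CD8 order overlapped in either genotype. Among the genes with a mean of at least 1 TPM in CD8 controls, 97.4% were lower than Tox, 87.3% lower than Tox4, 33.8% lower than Tox2 and 6.86% lower than Tox3. The same shares in DP controls were 90.1%, 82.2%, 24.7% and 24.0%.

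The other 3 members were compared between DP cKO and DP control samples, the comparison that asks what loss of Tox4 does before lineage commitment. Tox was lower in the cKO samples, and Tox2 and Tox3 overlapped between the genotypes. Tox was at 182, 172 and 165 CPM in the controls and at 148, 128 and 142 in the cKO samples. All 3 cKO samples lay below all 3 controls, with log2 ratios by replicate number of -0.30, -0.42 and -0.22. The edgeR log2 fold change of Tox was -0.31 (SE 0.11, 95% interval -0.56 to -0.06), a size like that of Tox4, with an adjusted p of 0.398 (0.116 to 0.868 over the alternatives, DESeq2 included) and an exact permutation p of 0.1. Tox2 was at 7.68, 13.6 and 11.97 CPM in the controls and at 12.7, 10.4 and 19.4 in the cKO samples. It was higher in the cKO sample in 2 of 3 pairs of the same number, and its log2 fold change was 0.36 (SE 0.28, 95% interval -0.28 to 0.998, edgeR adjusted p 0.779). Without 1 library it ran from 0.0693, without cKO replicate 3, to 0.54, without cKO replicate 2. Tox3 was at 9.79, 8.07 and 12.9 CPM in the controls and at 8.94, 11.7 and 14.1 in the cKO samples, with a log2 fold change of 0.18 (SE 0.24, 95% interval -0.36 to 0.72, edgeR adjusted p 0.888). It too was higher in the cKO sample in 2 of 3 pairs, and without 1 library it ran from 0.0131, without cKO replicate 3, to 0.37, without control replicate 3.

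A gene was called when its adjusted p was below 0.05, its fold change at least 1.5 and its mean at least 1 TPM. In the interaction between genotype and cell type, given below, the adjusted p alone decided. Of the 4 members, 0 were called between DP genotypes by edgeR and 0 by DESeq2, and 2, Tox and Tox4, had an unadjusted p under 0.05 in each tool. Over all genes edgeR called 17 of 11748 (0.145%), 10 up and 7 down, with 1079 at an unadjusted p under 0.05, and DESeq2 called 160. The count of 17 depended on single libraries. It was 8, 0 and 4 without DP control 1, 2 or 3 and 7, 1 and 1 without DP cKO 1, 2 or 3, and 990 genes had an unadjusted p under 0.05 in edgeR where it was 0. With the replicate number as a block, an alternative in DP cells, it was 131 (1.12%), with 1941 genes (16.5%) at an unadjusted p under 0.05.

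In CD8 cells, Tox did not separate the genotypes, Tox2 was higher in the cKO sample of every pair of the same number, and Tox3 had few reads. Tox2 was at 27.3, 33.1, 5.61, 4.77 and 6.92 CPM in the controls and at 54.2, 35.6, 8.21, 13.2 and 11.8 in the cKO samples. The genotypes overlapped because samples 1 and 2 were several times higher than the rest in both, whereas among the samples numbered 3 to 5 every cKO sample lay above every control. By replicate number the log2 ratio of cKO to control was 0.99, 0.10, 0.55, 1.47 and 0.77. The edgeR log2 fold change was 0.69 (SE 0.59, 95% interval -0.57 to 1.94, adjusted p 0.979), with an exact permutation p of 0.413. Without 1 library it ran from 0.17, without cKO replicate 1, to 1.18, without control replicate 2. With the replicate number as a block, which the CD8 samples allowed, it was 0.74 (SE 0.17, 95% interval 0.38 to 1.11) with an adjusted p of 0.0885 in edgeR, and 0.76 with an adjusted p of 0.0108 in DESeq2, where Tox2 was called. Without the samples numbered 1 and 2 it was 0.93 (SE 0.24, 95% interval 0.40 to 1.46, edgeR adjusted p 0.233). The adjusted p of Tox2 over all the alternatives in edgeR and DESeq2 ran from 0.0108 to 0.9995.

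Tox was at 588, 505, 279.7, 260.3 and 304 CPM in the CD8 controls and at 519.8, 476, 262, 325 and 299 in the CD8 cKO samples. The cKO sample was lower in 4 of 5 pairs (3 in TPM) and higher in the pair numbered 4, whose cKO library was also the one high in Tox4. The log2 fold change was -0.04 (SE 0.24, 95% interval -0.56 to 0.48, edgeR adjusted p 0.998), -0.01 with the replicate block and 0.07 without samples 1 and 2. Its sign turned without control replicate 1 (0.16) or 2 (0.08) or cKO replicate 3 (0.07), 4 (0.01) or 5 (0.04). Tox3 was at 3.26, 1.28, 1.20, 2.85 and 0.947 CPM in the controls and at 3.40, 2.29, 2.81, 1.62 and 1.26 in the cKO samples. It was higher in the cKO sample of 4 of 5 pairs and lower in the pair numbered 4, with a log2 fold change of 0.28 (SE 0.40, 95% interval -0.58 to 1.15, edgeR adjusted p 0.979). With the block it was 0.32, and without samples 1 and 2 it was 0.21. Without 1 library it ran from 0.0877, without cKO replicate 1, to 0.56, without control replicate 1.

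**Figure D3:**
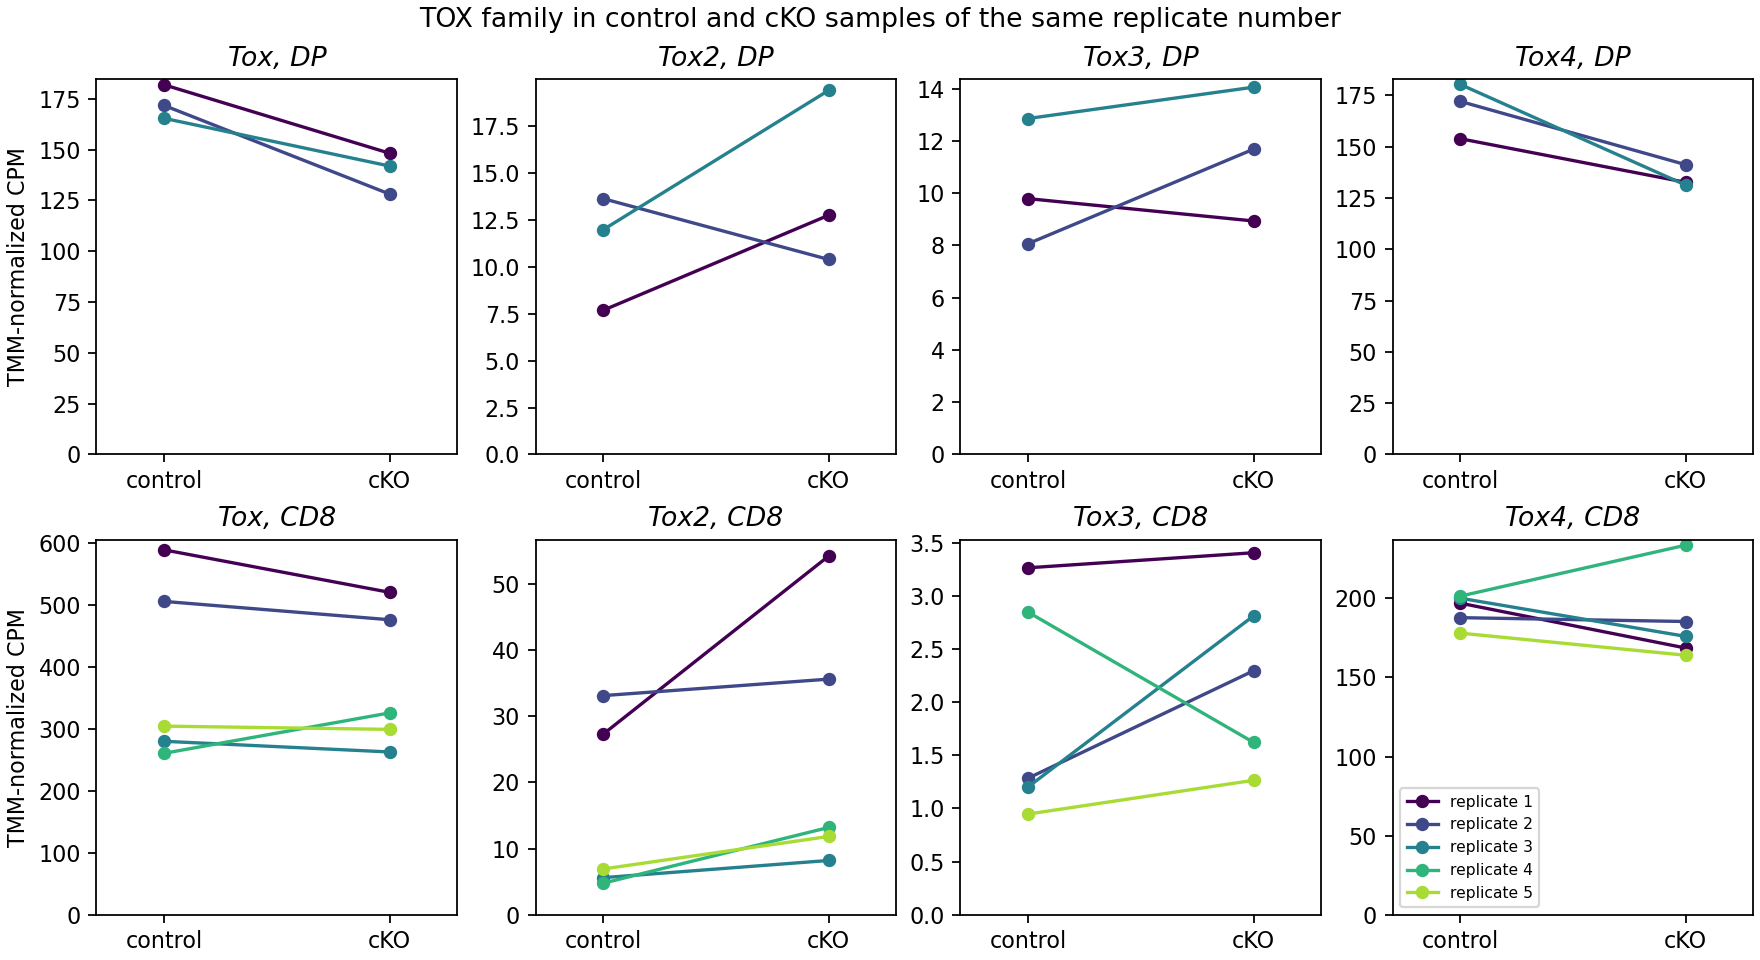
TMM-scaled CPM of each member by replicate number in DP and CD8 cells, with lines that join the control and cKO samples of the same number. Tox2 is higher in the cKO sample of all 5 CD8 pairs, and Tox4 is lower in the cKO sample of all 3 DP pairs and of 4 of the 5 CD8 pairs.

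Of the 4 members, 0 were called by edgeR or by DESeq2 between CD8 genotypes, and 0 had an unadjusted p under 0.05 in either. With the replicate block 0 were called by edgeR and 1, Tox2, by DESeq2, and Tox2 had an unadjusted p under 0.05 in both. Over all genes edgeR called 11 of 11227 (0.0980%), 10 up and 1 down, with 629 at an unadjusted p under 0.05, and DESeq2 called 53. The edgeR count was 31 (0.276%) with the replicate block, where 983 genes (8.76%) had an unadjusted p under 0.05, and 5 without the samples numbered 1 and 2, where 1170 (10.6%) had. It was 4 without control replicate 3, 6 without control replicate 5, 7 without cKO replicate 3 and 20 without cKO replicate 4, and 8 to 15 without any 1 of the others.

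Whether the genotype difference itself differed between the cell types was tested as an interaction. The CD8 minus DP difference in log2 fold change was 0.27 for Tox (95% interval -0.47 to 1.01), 0.32 for Tox2 (-1.52 to 2.16), 0.12 for Tox3 (-0.93 to 1.17) and 0.26 for Tox4 (-0.05 to 0.58). All 4 intervals include 0, and the edgeR adjusted p were 0.950 to 0.987. For Tox the value was 0.30 (95% interval 0.02 to 0.57, adjusted p 0.476) with the replicate block within each cell type, and 0.37 (0.04 to 0.71, adjusted p 0.503) without the CD8 samples numbered 1 and 2. Both of these intervals lie above 0, although neither passed the adjusted p, which ran from 0.476 to 0.99995 for Tox over the alternatives. For Tox4 both intervals include 0, at 0.25 (-0.02 to 0.52) with the block and 0.30 (-0.08 to 0.68) without samples 1 and 2. With the block the value was 0.39 for Tox2 (-0.28 to 1.06) and 0.13 for Tox3 (-0.69 to 0.94). Without samples 1 and 2 it was 0.56 for Tox2 (-0.30 to 1.42) and 0.02 for Tox3 (-1.11 to 1.15). Without 1 library the value for Tox ran from 0.12, without CD8 cKO 1, to 0.47, without CD8 control 1, that for Tox2 from -0.20 to 0.81 and that for Tox4 from 0.17 to 0.33. The value for Tox2 was -0.20 without CD8 cKO 1, and that for Tox3 was -0.08 without DP control 3, -0.03 without DP cKO 1, -0.00 without CD8 control 3, -0.07 without CD8 control 5 and -0.08 without CD8 cKO 1. The number of members called was 0 of 4 in edgeR and in DESeq2, with 0 at an unadjusted p under 0.05 in either, beside 13 of 12131 genes (0.107%) in edgeR, with 639 at an unadjusted p under 0.05, and 37 in DESeq2. With the block, and also without samples 1 and 2, edgeR called 0 of the 4 and 1, Tox, had an unadjusted p under 0.05. The 13 became 10 without DP control 3, 11 without CD8 cKO 1 and 0 to 5 without any 1 of the other 14 libraries, the 0 without DP control 2 and without DP cKO 2, where 624 and 681 genes had an unadjusted p under 0.05. It was 33 (0.272%) with the block and 5 without the CD8 samples numbered 1 and 2, where 1171 (9.65%) and 1141 (9.41%) genes had an unadjusted p under 0.05.

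**Figure D4:**
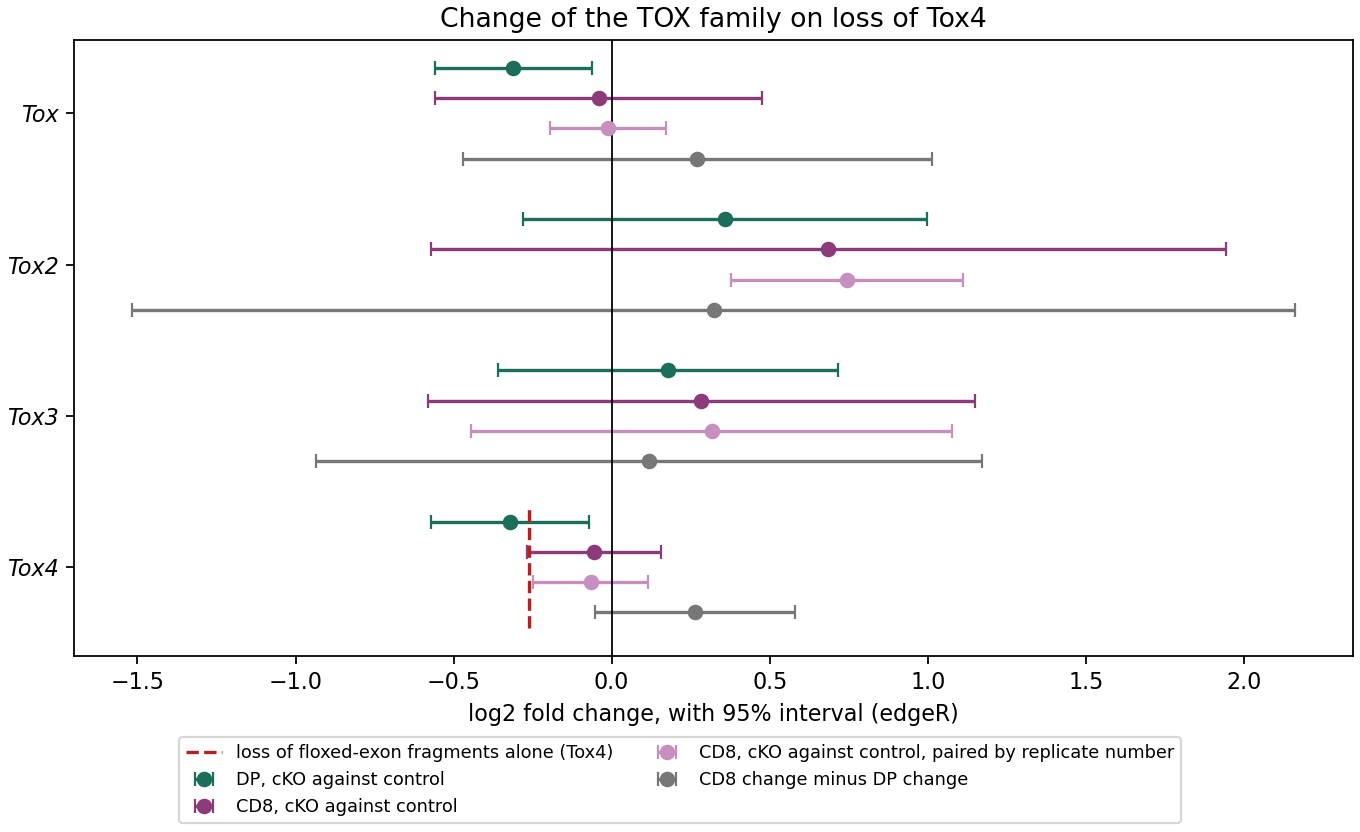
Log2 fold change of each member with its 95% interval. Shown are cKO against control in DP cells, in CD8 cells and in CD8 cells with the replicate block, and the CD8 minus DP difference. A dashed line at -0.26 marks the value for Tox4 if fragments were evenly spread and those of the floxed exons alone were lost. The block narrows the Tox2 interval in CD8 cells from between -0.57 and 1.94 to between 0.38 and 1.11.

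Tox and Tox3 differed more between the cell types than between the genotypes. In controls the fitted cell type differences of Tox4 and Tox2 were no larger than their largest between genotypes. In cKO samples they were larger, at 0.53 beside -0.32 in DP cells for Tox4 and 0.87 beside 0.69 in CD8 cells for Tox2. Cell type cannot be told apart from the count table and the library series, since each table holds 1 cell type. CD8 cells held more Tox than DP cells, by 1.24 on the log2 scale in controls (SE 0.26, 95% interval 0.69 to 1.79, edgeR adjusted p 0.000517) and by 1.51 in cKO samples (SE 0.27, 95% interval 0.95 to 2.06, adjusted p 7.61e-05). Every CD8 sample lay above every DP sample. Without the CD8 samples numbered 1 and 2 the difference was 0.79 and 1.16, still called in edgeR, where over the alternatives the adjusted p ran up to 0.00377 in controls and 0.000938 in cKO samples. Tox3 was lower in CD8 cells, by -2.37 in controls (SE 0.35, edgeR adjusted p 1.35e-05) and by -2.25 in cKO samples (SE 0.35, adjusted p 1.74e-05), and by -2.55 and -2.53 without those 4 libraries.

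Tox4 was slightly higher in CD8 cells. Its log2 difference was 0.27 in controls (SE 0.11, 95% interval 0.04 to 0.49, edgeR adjusted p 0.0384) and 0.53 in cKO samples (SE 0.11, 95% interval 0.30 to 0.76, adjusted p 0.000330), and neither reached the 1.5-fold threshold. In TPM all 10 CD8 samples lay above all 6 DP samples. The adjusted p in controls was above 0.05 without DP control 1 (0.120) or 2 (0.0862), without CD8 control 1 (0.0507), 3 (0.0693) or 4 (0.0708), without the CD8 samples numbered 1 and 2 (0.0708) and with no filter on low counts (0.0740), in a range of 0.00931 to 0.120 over the edgeR and DESeq2 alternatives. In cKO samples Tox4 passed all thresholds without CD8 cKO replicate 5, at 0.60. Without the CD8 samples numbered 1 and 2 it was at 0.58 in cKO samples (edgeR adjusted p 0.00115), under 1.5-fold.

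Tox2 depended on which CD8 libraries were counted. With all samples its log2 difference was 0.55 in controls (95% interval -0.78 to 1.88, edgeR adjusted p 0.472) and 0.87 in cKO samples (95% interval -0.45 to 2.19, adjusted p 0.235). Without 1 library it ran from 0.0603, without CD8 control 2, to 0.78, without CD8 control 4, in controls and from 0.35, without CD8 cKO 1, to 1.18, without DP cKO 3, in cKO samples. Without the samples numbered 1 and 2 it was -0.85 in controls (95% interval -1.47 to -0.23, adjusted p 0.0206), where Tox2 was called lower in CD8 cells, and -0.29 in cKO samples (95% interval -0.89 to 0.30, adjusted p 0.372). Over the edgeR and DESeq2 alternatives its adjusted p ran from 0.0206 to 0.941 in controls and from 0.137 to 0.623 in cKO samples. With all samples, Tox and Tox3 were thus the 2 of 4 members called in each contrast, beside 5340 of 12131 genes in controls (44.0%) and 5723 in cKO samples (47.2%), a background so high that the members' share is near it. By direction, 21.1% of all genes were called higher and 22.9% lower in CD8 cells in controls, and 22.2% and 25.0% in cKO samples.

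The CD8 samples numbered 1 and 2 that were high in Tox and Tox2 were also high in some genes of TCR signaling and low in others. Of the 15 TCR and calcineurin genes, 7 were higher in samples 1 and 2 than in the other 3 in each genotype. In each genotype 3 were lower, and the other 5 overlapped in at least 1 genotype. The share of all genes that separated these samples was not counted, so the numbers are no result about the list. The genes named next were picked after their values were seen. Nr4a1, an immediate early gene of TCR signaling, was at 1117, 967, 644, 561 and 537 TPM in controls and at 1251, 1374, 667, 962 and 639 in cKO samples. In each genotype samples 1 and 2 were the highest, with cKO replicate 4 the next. Ppp3ca, a calcineurin subunit gene, went the other way, at 34.7, 38.8, 43.7, 44.6 and 40.7 TPM in controls and at 34.4, 36.7, 43.6, 44.6 and 50.99 in cKO samples. Samples 1 and 2 were lowest in each genotype, as they also were in Ppp3r1 and Nfatc2. Ccr7, a chemokine receptor gene of mature thymocytes, was at 596, 515, 1142, 1229.7 and 967 TPM in controls and at 521, 538, 1107, 1044 and 867 in cKO samples, and S1pr1, which directs thymic exit, at 728, 549.5, 912, 935 and 777 and at 518, 526, 866, 854 and 878. Both were lowest in samples 1 and 2 of each genotype. Their part in the levels of Tox and Tox2 was not tested, and in bulk samples fewer cells of a type and less RNA per cell cannot be told apart.

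**Figure D5:**
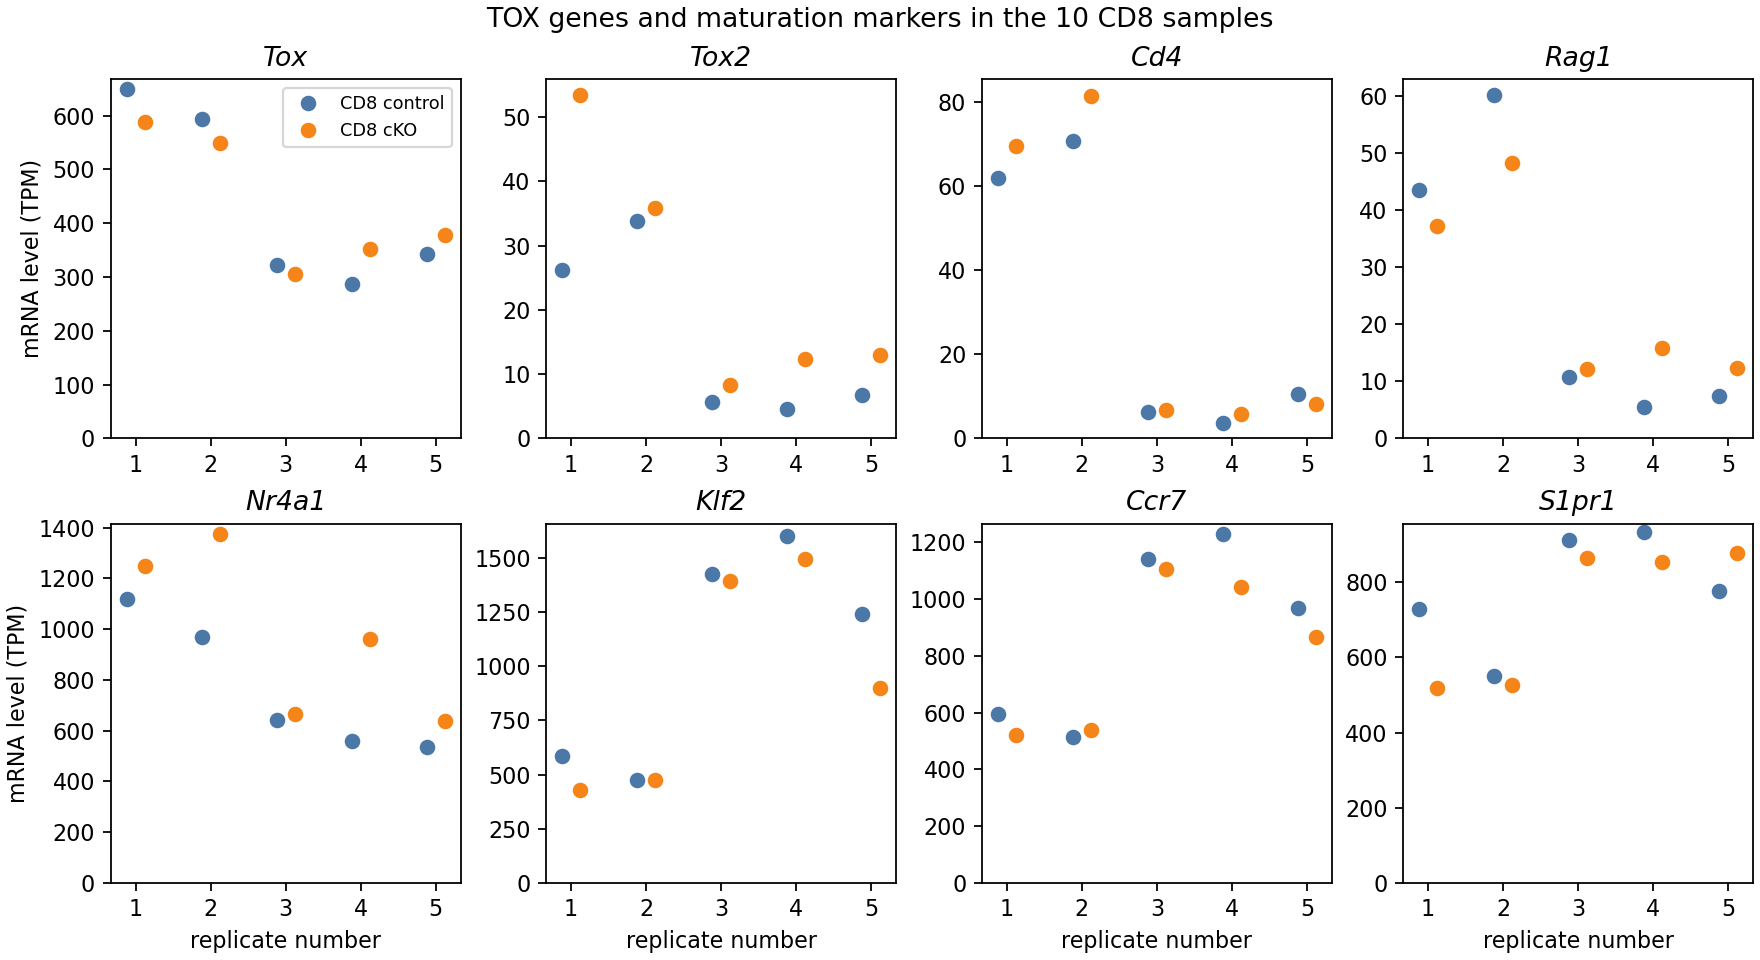
Level in TPM of Tox, Tox2, Cd4, Rag1, Nr4a1, Klf2, Ccr7 and S1pr1 in the 10 CD8 samples by replicate number, with control and cKO samples in different colors. Samples 1 and 2 are high in Tox2, with 26.3 or more against 13.05 or less in the others, and low in Klf2, with 585 or less against 898 or more.

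Summed over the family, DP cKO samples held less TOX family RNA than DP controls. The 4 members came to 313, 292 and 296 TPM in the DP controls and to 257, 234 and 236 in the DP cKO samples. The groups did not overlap, and the means were 301 (SD 11.1) and 243 (SD 12.5), a log2 difference of -0.31 with an exact permutation p of 0.1. Without Tox4 the other 3 came to 209, 185 and 183 TPM in controls and to 171, 145 and 159 in cKO samples, again with no overlap and an exact p of 0.1. In CD8 cells the 4 came to 818, 769.8, 478, 435 and 480.05 TPM in controls and to 767, 725, 448, 528 and 525 in cKO samples, with means of 596 (SD 182) and 599 (SD 139) and an exact permutation p of 0.960. The genotypes overlapped, and samples 1 and 2 held the largest sums in each. The log2 difference was 0.01 and turned negative without control replicate 3 (-0.06), 4 (-0.09) or 5 (-0.06) or cKO replicate 1 (-0.10) or 2 (-0.07). Without the samples numbered 1 and 2 it was 0.11, with an exact permutation p of 0.3.

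As RNA, and with no bearing on protein, Tox4 made up 33.3%, 36.6% and 38.1% of that sum in the DP controls. In the DP cKO samples its share was 33.7%, 37.97% and 32.9%. These overlapped, with means of 36.0% (SD 2.47) and 34.8% (SD 2.74) and an exact permutation p of 0.7. In CD8 cells its share was 17.0%, 18.3%, 30.9%, 32.5% and 26.8% in controls and 15.9%, 18.9%, 29.3%, 30.6% and 25.3% in cKO samples. Samples 1 and 2 had the lowest shares in each genotype, and the means of 25.1% (SD 7.14) and 24.0% (SD 6.42) gave an exact permutation p of 0.754. The cKO mean share was the higher one without control replicate 3 or 4 or cKO replicate 1 or 2, by 0.02, 0.04, 0.05 and 0.01 on the log2 scale. Without the samples numbered 1 and 2 the cKO mean share was the lower one, at -0.08 on that scale, with an exact permutation p of 0.5.

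Among the 5 partners of TOX4 in the PTW/PP1 complex, Ppp1r10 separated the genotypes in both cell types. It was at 81.0, 67.7 and 74.1 TPM in DP controls and at 129, 94.3 and 108 in DP cKO samples, and at 103, 98.5, 78.7, 75.4 and 83.3 in CD8 controls and at 133, 136, 150.02, 110.3 and 125 in CD8 cKO samples. Every cKO sample lay above every control of its cell type. The log2 fold change was 0.61 (SE 0.13, edgeR adjusted p 0.131) in DP and 0.54 (SE 0.11, adjusted p 0.0973) in CD8 cells, where it was 0.64 without the samples numbered 1 and 2. DESeq2 called Ppp1r10 in DP cells, at 0.60 with an adjusted p of 0.00670 (range over the alternatives 6.37e-05 to 0.414), and in CD8 cells its adjusted p of 0.00203 (range 6.58e-05 to 0.324) came with 0.55, under 1.5-fold. In CD8 cells edgeR called it without control replicate 1, at 0.62 with an adjusted p of 0.0365. With the replicate block its edgeR adjusted p was 0.0192 in DP cells, where it was called at 0.60, and 0.0203 in CD8 cells, at 0.55 and under 1.5-fold. The list of partners had 0 of 5 called by edgeR in each cell type, with 1, Ppp1r10, at an unadjusted p under 0.05 in each, and DESeq2 called 1 in DP and 0 in CD8 cells, as did edgeR with the block. The median log2 fold change was 0.04 in DP and 0.09 in CD8 cells, beside -0.00 and -0.01 over all genes. In DP cells the others were at -0.12 (Wdr82), 0.04 (Ppp1ca), -0.31 (Ppp1cb) and 0.04 (Ppp1cc), and in CD8 cells at 0.09, 0.07, 0.16 and 0.06. Between CD8 and DP cells 0 of 5 were called by edgeR or DESeq2 in either genotype, beside 44.0% of all genes in controls and 47.2% in cKO samples by edgeR, with 1 and 2 of the 5 at an unadjusted p under 0.05 in each tool. Without CD8 cKO replicate 4, Ppp1ca was called lower in CD8 than in DP cells of the cKO, at -0.60.

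In the DP cKO samples, where Tox was lower, the summed RNA of a list of TCR and calcineurin genes was lower too, although edgeR called 0 of its 15 genes and DESeq2 3. The list, from the calcineurin subunit gene Ppp3ca to the early response genes of the Egr and Nr4a families, had a summed level of 2372, 2186 and 2272 TPM in the DP controls and of 1748, 1807 and 1717 in the DP cKO samples. The groups did not overlap, and the most abundant gene was Cd5 or Nfatc3. Of the 15, edgeR called 0, with 14 negative and 8 at an unadjusted p under 0.05, all of them lower, beside 9.18% of all genes. The median log2 fold change was -0.47 beside -0.00 over all genes. DESeq2 called 3 lower, beside 160 of all 11748 genes called either way, and they are named here after their values were seen. They were Nr4a3 at -0.84, Cd69 at -0.72 and Itm2a at -0.65. With the replicate block edgeR called 5 lower, which were these 3, Nr4a1 and Egr1, beside 1.12% of all genes called either way. In CD8 cells the list had sums of 4445, 4523, 3378, 3087 and 3038 TPM in controls and of 4565, 4825, 3279, 4126 and 3422 in cKO samples, with Nr4a1 or Cd5 the most abundant. Samples 1 and 2 were again the highest in each genotype, followed in the cKO samples by replicate 4. Both edgeR and DESeq2 called 0 of the 15 in CD8 cells, with 0 at an unadjusted p under 0.05 in either and a median of 0.09. With the block edgeR called 0, with 1 at an unadjusted p under 0.05, beside 8.76% of all genes. The interaction had a median of 0.48 for the list beside -0.01 over all genes, with 0 called by edgeR and 0 by DESeq2, and 6 and 7 at an unadjusted p under 0.05. With the block within each cell type edgeR called 2, Nr4a1 at 0.93 and Nr4a3 at 0.96, beside 0.272% of all genes. It had 11 at an unadjusted p under 0.05, beside 9.65% of all genes. Without the CD8 samples numbered 1 and 2 it called 0, with a median of 0.51 and 8 at an unadjusted p under 0.05, beside 9.41% of all genes. The part of these genes in the level of Tox was not tested.

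Of 9 genes that mark CD8 single-positive thymocytes, 8 had a negative log2 fold change between DP genotypes, and edgeR called 0 and DESeq2 1. The 9 CD8 single-positive markers came to 5924, 4845 and 4996 TPM in the DP controls and to 4906, 4008 and 4218 in the DP cKO samples, where Cd8b1 was the most abundant. These sums overlapped, and the median log2 fold change was -0.45. The 1 that DESeq2 called, beside 160 of all 11748 genes, was Ccr7, at -1.08. In each tool 4 had an unadjusted p under 0.05, beside 9.18% of all genes in edgeR and 9.28% in DESeq2. With the replicate block edgeR called 2 lower, Ccr7 and Il7r, beside 1.12% of all genes called either way. The 8 DP markers came to 15024, 12079 and 13050.4 TPM in the DP controls and to 13355, 11384 and 11141 in the DP cKO samples, with Rag1 the most abundant in all but DP cKO replicate 3. The median was -0.03, with 0 called by edgeR and by DESeq2 and 1 at an unadjusted p under 0.05 in each. In CD8 cells the single-positive markers came to 7264, 6571, 9101, 9075 and 8121 TPM in controls and to 6192, 6261, 9057, 9710.3 and 7922 in cKO samples. They were lowest in the samples numbered 1 and 2, the reverse of Tox and Tox2. The DP markers came to 3659.7, 3652, 3608, 3333 and 3401 TPM in CD8 controls and to 3109, 3168, 3113, 3704 and 3185 in CD8 cKO samples, most of it from Cd8a and Cd8b1. Between CD8 genotypes edgeR and DESeq2 called 0 in either marker list, with 1 single-positive marker and 0 DP markers at an unadjusted p under 0.05 in both tools and medians of -0.13 and -0.01. In edgeR the block gave 0 called in either, with medians of -0.13 and 0.09. At an unadjusted p under 0.05 were 3 and 2, beside 8.76% of all genes. In the interaction edgeR and DESeq2 called 0 of the 9 single-positive markers, with 3 and 4 at an unadjusted p under 0.05 and an edgeR median of 0.53. With the block within each cell type edgeR called 2, Ccr7 at 0.88 and Il7r at 1.15, beside 0.272% of all genes. In that fit 6 had an unadjusted p under 0.05, beside 9.65% of all genes. Without the CD8 samples numbered 1 and 2 edgeR called 0, with 4 at an unadjusted p under 0.05, beside 9.41% of all genes. Between cell types, edgeR called 7 of the 9 single-positive markers higher and 7 of the 8 DP markers lower in CD8 than in DP cells in each genotype, and the same numbers without the CD8 samples numbered 1 and 2. Over all genes 21.1% were called higher and 22.9% lower in controls, and 22.2% and 25.0% in cKO samples. Both lists hold Cd8a, which was not called, and Cd8b1, which was called lower in CD8 cells, at -0.82 in controls and -0.91 in cKO samples. Apart from the CD8 chain genes, which DP cells also express, both sorted populations carried the markers of their labels.

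The factors that act with TOX in the choice between the CD4 and CD8 lineages, 12 genes, had 0 called by edgeR between DP genotypes. At an unadjusted p under 0.05 were 1 up and 3 down, beside 9.18% of all genes, and the median was 0.02. The 1 that DESeq2 called, beside 160 of all 11748 genes, was Zbtb7b, which encodes the CD4 lineage factor ThPOK. It was at 12.01, 6.90 and 8.45 TPM in the DP controls and at 4.14, 4.13 and 4.22 in the DP cKO samples. All cKO samples lay below all controls, with a log2 fold change of -1.08 (edgeR adjusted p 0.122, DESeq2 adjusted p 0.00132, range over the alternatives 0.00102 to 0.393). In CD8 cells 0 of the 12 were called by edgeR or DESeq2, with 0 at an unadjusted p under 0.05 in either and a median of -0.00. With the block edgeR called Zbtb7b lower in DP cells, beside 1.12% of all genes called either way. It called 0 of the 12 in CD8 cells, with 1 at an unadjusted p under 0.05, beside 8.76% of all genes. Between the cell types 1 was higher and 6 lower in CD8 than in DP cells in each genotype by edgeR, with a median of -0.70 in both, and 1 and 8 without the CD8 samples numbered 1 and 2. These 7 of 12 stand beside 44.0% of all genes in controls and 47.2% in cKO samples. Runx3, the CD8 lineage factor, was higher by 4.06 in controls and 3.93 in cKO samples. Cd4 was at -5.89 and -5.74, Myb at -1.85 and -1.98, and Zbtb7b at -2.34 and -1.37. Over the alternatives Cd4 ran from -7.99 to -5.60 in controls and from -8.10 to -5.47 in cKO samples.

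Of the 24 other HMG-box genes, 23 were tested in DP cells, where 0 were called by edgeR or DESeq2, 0 had an unadjusted p under 0.05 in either, and the median was 0.01. In CD8 cells edgeR called 0 of 24, with a median of 0.04 and 4 higher at an unadjusted p under 0.05, beside 5.60% of all genes. DESeq2 called 1, Sox13, a factor of gamma-delta T cells, at 1.29, beside 53 of all 11227 genes. With the replicate block edgeR called Sox13 too, at 1.33, beside 0.276% of all genes called either way. In that fit 5 had an unadjusted p under 0.05, 4 higher and 1 lower, beside 8.76% of all genes. Between cell types the list went both ways, with 7 higher and 6 lower in CD8 cells in controls, 8 and 5 in cKO samples, and medians of 0.10 and 0.06 beside -0.03 and -0.05 over all genes. These 13 of 24 in each genotype are a share near the 44.0% and 47.2% of all genes. Without the CD8 samples numbered 1 and 2 the counts were 7 and 6 in controls and 8 and 8 in cKO samples. Among those called in both genotypes, the largest rises were Sox5 at 5.59 in controls and 6.60 in cKO samples, Tcf7l1 at 1.80 and 1.77, and Sox13 at 1.47 and 2.55. Sox5 had 0 to 5 counts in a DP library, too few for an exact fold. Over the alternatives it ran from 5.05 to 7.32 in controls and from 6.32 to 6.90 in cKO samples. The largest falls were Hmgb2 at -2.63 and -2.91, Hmgb3 at -1.95 and -2.03, and Hmgb1 at -1.91 and -1.99. Tox at 1.24 and 1.51 and Tox3 at -2.37 and -2.25 lay within the range of these genes.

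Of the TCR genes, those with more RNA in CD8 cells, like Tox, numbered 10 of 15 in controls and 11 of 15 in cKO samples by edgeR, beside 21.1% and 22.2% of all genes, with medians of 1.47 and 2.095. Without the CD8 samples numbered 1 and 2 they numbered 10 in each genotype. Egr3 was at 3.10 and 3.86, Nr4a3 at 2.45 and 3.41 and Nr4a2 at 2.46 and 2.89. The 2 lower in controls were Nfatc3 and Itm2a, the latter named after its values were seen, and the 1 lower in cKO samples was Nfatc3, which was at -0.63 and -0.60. In cKO samples Nfatc3 fell short of 1.5-fold without DP control 1 (-0.57), DP cKO 2 (-0.56), CD8 control 5 (-0.57) or CD8 cKO 1 (-0.55), 2 (-0.56) or 3 (-0.58). It also fell short in DESeq2 (-0.55), which called 0 of the 15 lower in cKO samples, with RLE scaling (-0.55), with no filter on low counts (-0.58) and without the CD8 samples numbered 1 and 2 (-0.49), so that it was called in 12 of 22 fits. Of 11 inhibitory receptor genes and factors tied to TOX in exhausted T cells, 10 were tested between the cell types, and 8 were higher and 1 lower in controls, with 9 and 1 in cKO samples and medians of 1.99 and 2.67, and 8 and 1 in each genotype without the CD8 samples numbered 1 and 2. Eomes was at 5.90 and 7.33, Cd160 at 3.82 and 4.48, Irf4 at 3.09 and 3.61 and Lag3 at -2.29 and -1.93. Between DP genotypes Eomes could be fitted in 2 settings only, so its difference between cell types is no exact fold. Over the alternatives this difference ran from 5.30 to 7.48 in controls and from 6.94 to 8.04 in cKO samples. Between genotypes edgeR and DESeq2 called 0 of 8 tested in DP cells and 0 of 10 in CD8 cells, with medians of -0.42 and 0.05. At an unadjusted p under 0.05 were 2 and 1 in edgeR, beside 9.18% and 5.60% of all genes, and 1 and 1 in DESeq2. With the block edgeR called 0 in CD8 cells, with 2 at an unadjusted p under 0.05 and a median of 0.10. The interaction had a median of 0.59 for these genes, and of 0.71 without samples 1 and 2, with 0 called by edgeR and 1 at an unadjusted p under 0.05 in both fits. With the block it was 0.67, with 0 called and 4 of 10 at an unadjusted p under 0.05, beside 9.65% of all genes.

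Markers of other cell types were summed in each sample beside the low-level members Tox2 and Tox3. Of all genes, 9.18% in DP and 5.60% in CD8 cells had an unadjusted p under 0.05 in edgeR. With the block the share in CD8 cells was 8.76%. The CD8 cells were sorted as TCRβ+CD8+, and whether cells of other types remained after the sort was not tested. Of 5 gamma-delta T cell markers the tables hold 2, Sox13 and Cd163l1, which together were at 8.58, 6.403, 6.33, 3.04 and 4.92 TPM in the CD8 controls and at 24.3, 13.3, 14.7, 13.48 and 19.4 in the CD8 cKO samples. Every cKO sample lay above every control, with a median log2 fold change of 1.55. Cd163l1 was at 2.28, 2.22, 2.87, 1.2504 and 2.79 TPM in the controls and at 10.9, 6.24, 7.46, 5.89 and 10.7 in the cKO samples. The groups did not overlap, and it rose by 1.81 (SE 0.26, edgeR adjusted p 0.00984). It was not called without the samples numbered 1 and 2, at 1.73 with an edgeR adjusted p of 0.110, the highest of a range that began at 4.54e-08 in DESeq2. Sox13, which DESeq2 called, had an edgeR adjusted p of 0.203. In edgeR it was called with the replicate block, at 1.33 with an adjusted p of 0.0211, and without CD8 control replicate 1, at 1.61 with an adjusted p of 0.0488 (range 0.000171 to 0.506 over edgeR and DESeq2 alternatives). The block thus called both markers, beside 0.276% of all genes called either way. It called neither without the samples numbered 1 and 2, at adjusted p of 0.0795 for Cd163l1 and 0.0866 for Sox13. In DP cells both markers together were at 1.44 to 2.28 TPM and 0 of the 2 were called by edgeR or DESeq2, with 0 at an unadjusted p under 0.05. Their part in the Tox2 values was not tested.

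NK and innate lymphoid markers, 6 genes led by Klrd1, came to 88.1, 101, 104, 101 and 95.8 TPM in the CD8 controls and to 152, 93.8, 162, 108 and 163 in the CD8 cKO samples, which overlapped. In DP cells they came to 84.5, 81.4 and 39.0 in controls and to 128, 110.2 and 76.5 in cKO samples, most of it from Gzma, with 1 to 3 of the 6 at 0 in each sample of either cell type. By edgeR and by DESeq2 0 were called, of 1 tested in DP and 4 in CD8 cells, with 1 and 2 at an unadjusted p under 0.05 in each tool. With the block edgeR called the 1 in DP cells, Gzma, higher at 0.76, beside 1.12% of all genes called either way. It called 0 in CD8 cells, with 3 at an unadjusted p under 0.05, beside 8.76% of all genes. The median log2 fold change was 0.71 in DP and 0.29 in CD8 cells. Myeloid markers, led by Cd68 or Lyz2, were at 50.9, 90.6 and 46.1 TPM in DP controls and 47.1, 43.5 and 50.6 in DP cKO samples, and at 48.1, 44.5, 31.9, 31.1 and 32.2 in CD8 controls and 60.1, 81.7, 42.7, 32.2 and 55.6 in CD8 cKO samples. They overlapped between genotypes, and edgeR called 0 of 6 in DP and 0 of 3 tested in CD8 cells, with 3 and 2 at an unadjusted p under 0.05. DESeq2 called 1 lower in DP cells, Lyz2, beside 160 of all 11748 genes, and 0 in CD8 cells. The block gave 0 called by edgeR in CD8 cells and 2 at an unadjusted p under 0.05. In DP cells the median was -0.89, with 4 of 6 negative and 1 higher and 2 lower among those at an unadjusted p under 0.05, and in CD8 cells it was 0.52. B cell markers, of which 5 of 6 are in the tables, were led by Cd79b at sums of 54.7, 61.5 and 41.8 TPM in DP controls, 40.0, 44.7 and 43.3 in DP cKO samples, 65.5, 28.3, 27.1, 20.4 and 28.4 in CD8 controls and 51.3, 41.6, 22.9, 33.5 and 37.3 in CD8 cKO samples. In each genotype the largest CD8 sum was in sample 1, and edgeR and DESeq2 called 0 of 4 tested in either cell type, with 2 in DP and 0 in CD8 cells at an unadjusted p under 0.05 in both tools, and in CD8 cells the block gave 0 and 0. All 4 were negative in DP cells, where the median was -1.08, and in CD8 cells the median was -0.12. Thus B cell markers and most myeloid markers had negative log2 fold changes between DP genotypes. In that comparison the DP cKO samples also lay below the controls in Tox and in the sum of the TCR list. DP cells were sorted as CD4+CD8+, and whether B or myeloid cells remained after the sort was not tested. The part of these markers in those values was not tested.

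Thymic epithelial markers were at 7.99, 8.60 and 12.1 TPM in DP controls and at 6.92, 4.98 and 6.39 in DP cKO samples, mostly Epcam, and those groups did not overlap. In CD8 controls they were at 7.36, 2.67, 3.91, 2.80 and 4.46, and in CD8 cKO samples at 5.58, 4.10, 1.75, 4.16 and 2.43. CD8 control replicate 1 was the single sample with 6 of 6 above 0 and had Foxn1, at 2.31 TPM, as the most abundant. By edgeR and DESeq2 0 of 1 tested was called in either cell type, with 0 at an unadjusted p under 0.05, and in CD8 cells the block gave 0 and 0. That gene was at -0.60 in DP and 0.12 in CD8 cells. The follicular helper T cell markers, the setting in which TOX2 is known, came to 228, 170.3 and 189 TPM in DP controls, 226, 185 and 174 in DP cKO samples, 245, 276, 193, 199 and 204 in CD8 controls and 279, 270.0, 219.9, 168 and 233 in CD8 cKO samples, led by Bcl6 or Icos. Their sums overlapped between genotypes, and edgeR called 0 of 3 tested in DP and 0 of 4 in CD8 cells, with 1 at an unadjusted p under 0.05 in each. DESeq2 called 1 lower in DP cells, Icos, beside 160 of all 11748 genes, and 0 in CD8 cells. Blocked fits in edgeR called Icos lower in DP cells, beside 1.12% of all genes called either way. In CD8 cells they called 0 of 4, with 3 higher and 1 lower at an unadjusted p under 0.05, beside 8.76% of all genes. The median was -0.37 in DP and 0.31 in CD8 cells. The 5 erythroid markers were at 0 to 0.448 TPM, with the 4 hemoglobin genes at 0 in every sample and 0 tested.

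Without the CD8 samples numbered 1 and 2, edgeR called 0 genes between CD8 genotypes in every list with a gene tested. Over all genes 1170 of 11089 (10.6%) then had an unadjusted p under 0.05, and a share of a list near that is no result about it. At that p there were 2 of 5 partners of TOX4, 3 of 24 other HMG-box genes, 0 of 12 lineage factors, 3 of 15 TCR and calcineurin genes and 1 of 10 inhibitory receptor genes and factors. Among the marker lists there were 3 of 7 tested DP markers, 1 of 9 single-positive markers, 0 of 3 B cell, 1 of 3 myeloid, 2 of 4 NK, 2 of 2 gamma-delta, 0 of 1 epithelial and 1 of 4 follicular helper markers. All of these were higher in the cKO samples except Batf, a factor in the list of inhibitory receptors, which is named after its values were seen and was lower. The medians were 0.13 for the partners, 0.02 for the HMG-box genes, -0.02 for the lineage factors, 0.06 for the TCR genes, -0.02 for the inhibitory receptor genes, 0.23 for the DP markers and -0.06 for the single-positive markers, beside -0.00 over all genes.

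The genes whose pattern over the 16 samples was most like that of a member were found among 11533 genes, by the root mean square difference in log2 CPM after each gene's own mean was subtracted. For Tox they were Cd2, an adhesion receptor gene, at 0.18, Mapre2 at 0.21 and Med14, a Mediator subunit gene, at 0.21, against a median of 0.81 over all genes. Cd2 was at 347 to 448 TPM in DP controls, 303 to 348 in DP cKO samples, 806 to 1396 in CD8 controls and 754 to 1292 in CD8 cKO samples, so it too was higher in CD8 cells. The closest to Tox2 were Mpp4 at 0.49, Tacc2 at 0.54 and Hivep3 at 0.56, against a median of 1.004. Those to Tox3 were Sec61g, a subunit gene of the protein translocation channel, at 0.29, Ndufa13, of respiratory complex I, at 0.29 and Ramp1 at 0.31, against 1.01, and Sec61g had 64.4 to 78.2 TPM in DP controls and 10.2 to 20.2 in CD8 controls. For Tox4 they were the palmitoyltransferase gene Zdhhc5 at 0.119, Max, which encodes the partner of MYC, at 0.120 and Parg, the poly(ADP-ribose) glycohydrolase gene, at 0.123, against 0.454. The nearest gene lay farther from Tox2 than the nearest gene of any other member did.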

How the data were processed

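The members and the gene lists were chosen with earlier results of these data known. According to the authors, reads were filtered with fastp 0.13.1, aligned with HISAT2 2.1.0 and counted per gene with featureCounts 1.6.1. Alignment and counting were strand-specific, and the deposited values are raw fragment counts for every replicate. The methods name mm10 for DP libraries, and the labels name mm10 as a build of the processing. From these counts, genes were compared with edgeR 4.0.16 in R 4.3.3 (filterByExpr, TMM, quasi-likelihood F test, Benjamini-Hochberg over all genes tested), with DESeq2 1.42.0 as an alternative. The cell type contrasts and the interaction came from 1 fit of all 4 groups, and the genotype comparisons from the 2 groups compared. Single levels and sums were compared by two-sided exact permutation tests, whose smallest p is 0.1 for 3 against 3 and 0.0079 for 5 against 5. TPM used the exonic lengths of the DP table in both cell types. The 4 coding sequences were read from the GENCODE annotation and genome of GRCm38 and aligned with mafft 7.526. Figures were drawn with matplotlib 3.10.9.

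The genes named are the 4 members, the gene on each side of Tox4, every partner of TOX4, the list members called between genotypes or in the interaction, from each of the first 5 lists the 3 members that rose most and the 3 that fell most among those called between the cell types in both genotypes, and the 3 genes most like each member. Calls in this rule are those of edgeR without a block. Others, those called under an alternative included, were named after their values were seen. The 14 lists cover partners of TOX4, other HMG-box genes, lineage factors, TCR and calcineurin genes, inhibitory receptors, and markers of DP, CD8 single-positive, B, myeloid, NK, gamma-delta T, thymic epithelial, erythroid and follicular helper T cells, and 111 of their 115 genes are in the tables.

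Whether samples of the same replicate number belong together was checked by the correlation of their residuals within each cell type. It was 0.100 to 0.389 for the 5 same-numbered CD8 pairs and -0.495 to 0.460 for other pairs, and 0.0803 to 0.708 for the 3 DP pairs and -0.560 to 0.367 for others. With a minimum of 0.1 for every same-numbered pair, the block is given beside the CD8 results of the members, the count over all genes and each list with a gene tested. Alternatives were RLE or upper quartile scaling, DESeq2, other filters, the replicate block, all 4 groups in 1 fit, CPM in place of TPM and each library left out. Leaving out the CD8 samples numbered 1 and 2, and DESeq2 with the block, were added after seeing the data.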

Additional observations from a re-analysis of the deposited data

How the results depend on the processing

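The fitted log2 fold changes of Tox, Tox2, Tox3 and Tox4 between DP genotypes and of Tox2, Tox3 and Tox4 between CD8 genotypes kept their direction under every alternative, as did Tox and Tox3 between cell types, but the log2 differences in mean TPM of Tox4 in CD8 and of Tox3 in DP cells turned under some. The DP count of 17 genes became 160 with DESeq2, 74 with no filter, 41 with all 4 groups in 1 fit, 131 with the replicate block (Tox -0.31, Tox4 -0.32), 218 with DESeq2 and the block, and 0 to 8 without 1 library. The CD8 count of 11 became 53 with DESeq2, 31 with the replicate block, 63 with DESeq2 and the block, 5 without the samples numbered 1 and 2, 6 with the block as well, and 4 to 20 without 1 library. The interaction count of 13 became 3 with upper quartile scaling, 37 with DESeq2, 33 with the block, 5 without samples 1 and 2, and 0 to 11 without 1 library. In CD8 cells Tox2 was called at 0.76 with DESeq2 and the block, Tox was at 0.0698 without samples 1 and 2, at 0.0672 with the block as well, and at -0.19 to 0.16 without 1 library. Between cell types, without samples 1 and 2, Tox2 was at -0.85 in controls and -0.29 in cKO samples. Tox4 in controls was no longer past the adjusted p at 0.28 with no filter and at 0.28 without samples 1 and 2, and ran from 0.23 to 0.32 without 1 library. Without 1 library the interaction was -0.20 to 0.81 for Tox2 and -0.0818 to 0.38 for Tox3, and the log2 difference in level of Tox3 in DP cells -0.0332 to 0.30. In CD8 cells the summed level was -0.0218 for 4 members and -0.00585 for Tox, Tox2 and Tox3 in CPM, and without 1 library -0.10 to 0.15 and -0.13 to 0.20, the share of Tox4 -0.18 to 0.0503, the level of Tox -0.15 to 0.17 and of Tox4 -0.10 to 0.00963, with 0.12 and 0.0247 without samples 1 and 2, so that the level of Tox4 turned in both. For each of these, the cause was not tested. Depth limits Tox3 in CD8 cells, with 11 to 40 counts in a library.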
